A study of Mus musculus with 6 samples.

Results

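The 10 genes described here encode members of the Eph receptor and ephrin family: the EphA receptor genes Epha3, Epha4, Epha5, Epha6 and Epha7, the EphB receptor genes Ephb1 and Ephb2, and the ephrin genes Efna3, Efna5 and Efnb3. They were taken by symbol from the 55401 genes of the count files, and the remaining 12 genes of the family were set beside them. The samples were dorsal hippocampi of male wild-type mice aged 4 months, littermates of the Ts65Dn Down syndrome line on a mixed B6EiC3 background. Each mouse had been injected on both sides, into the dorsal dentate gyrus, with 50 micrograms per hemisphere of an antisense oligonucleotide (ASO), and the tissue was taken 3 days later. The 3 Control-ASO mice received a scrambled sequence, and the 3 Snhg11-ASO mice an ASO that directs RNase H to exon 5 of Snhg11, a long non-coding RNA. Every group therefore carried the surgery and an ASO. The comparison asks which transcripts differ when Snhg11 is lowered. The whole dorsal part was cut out, so every cell type of the block was sampled together, and the files do not show which cells took up the ASO.

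Ephs are the largest family of receptor tyrosine kinases, and ephrins are their membrane-bound ligands, so the pathway works between touching cells. Ephrin-As are held on the membrane by a lipid anchor and bind mainly EphA receptors, ephrin-Bs span the membrane and bind mainly EphB receptors, and EphA4 binds both classes. Signals run forward into the cell with the receptor and in reverse into the cell with the ephrin. In the developing brain these contacts repel growing axons and sort maps. In the adult hippocampus they shape dendritic spines, regulate NMDA receptors at synapses and link neurons to astrocytes, where ephrin-A3 meets neuronal EphA4.

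None of the 10 genes passed the threshold for a difference between the groups. All 10 were tested, in an edgeR quasi-likelihood fit of 19969 genes with Benjamini-Hochberg adjusted p under 0.05 as the call, and the smallest adjusted p among them was 0.527, for Efna5. The same fit called 0% of all genes, Snhg11 itself not among them, with 1619 genes at an unadjusted p under 0.05. DESeq2 on the same counts called 258 genes, 0.796% of all genes being called lower, and 0 of the 10. Of the 10 fold changes, 5 were lower and 5 higher in Snhg11-ASO, with a median log2 fold change of -0.0040 against 0.0097 over all genes tested. For Efna5 the 3 Snhg11-ASO values lay below the lowest control, for Efna3 they lay above the highest, and the groups of the other 8 genes overlapped. Over all genes tested the groups did not overlap, with Snhg11-ASO lower, in 7.7%, and with Snhg11-ASO higher in 7.73%, so 1 of 10 in each direction was close to the background.

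**Figure D1:**
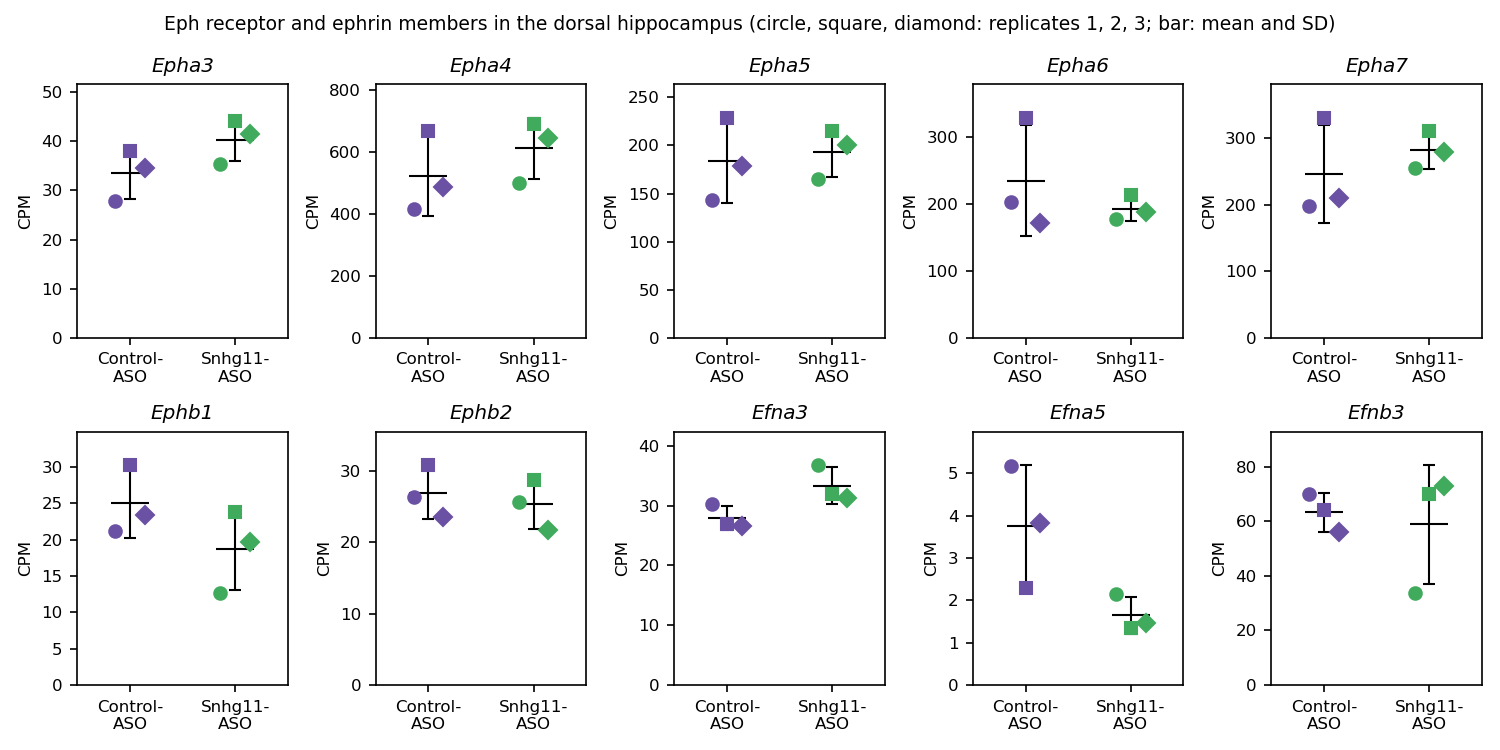
CPM (counts scaled to the library total, vertical axes from 0) of the 10 genes in each of the 6 samples, with Control-ASO in purple and Snhg11-ASO in green. Circles, squares and diamonds are replicates 1, 2 and 3, and black bars give the mean and SD of 3 samples. Efna5 and Efna3 are the panels in which the groups do not overlap.

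Efna5 and Efna3 had the only groups that did not overlap, in opposite directions, so their promoter sequences are shown. They are the RefSeq windows upstream of the annotated start in GRCm38.p6, on the minus strand in both cases, at chr17:62881318-62881567 for Efna5 and chr3:89322966-89323189 for Efna3, printed 5′ to 3′ in the direction of the gene. Capitals mark the GC box GGGCGG or its reverse complement CCGCCC.

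Efna5: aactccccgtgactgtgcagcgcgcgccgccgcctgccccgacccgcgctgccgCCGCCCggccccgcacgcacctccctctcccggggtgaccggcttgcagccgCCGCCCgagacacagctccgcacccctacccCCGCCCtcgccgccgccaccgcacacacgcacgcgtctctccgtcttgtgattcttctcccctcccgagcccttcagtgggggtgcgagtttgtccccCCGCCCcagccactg
Efna3: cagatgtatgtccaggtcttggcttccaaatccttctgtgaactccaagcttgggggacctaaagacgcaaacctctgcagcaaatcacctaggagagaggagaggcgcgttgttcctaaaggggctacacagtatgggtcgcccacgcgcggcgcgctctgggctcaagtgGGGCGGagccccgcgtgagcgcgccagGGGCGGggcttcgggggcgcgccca

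Both windows held the GC box, 4 times for Efna5 and 2 times in the printed stretch for Efna3. A RefSeq window was found for 9 of the 10 genes, Efnb3 being the exception, and its 250 bases before the start were searched. The box was present on either strand in 6 of these 9, against 32.9% of 27025 promoter windows of the same length. Over the whole family it was in 16 of 21 windows. The TATA motif TATAAA was in 0 of the 9 against 13.0% of all windows. GC content was above the median of all windows, 52%, in all 9. These are matches of letters only.

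Snhg11 was lower in the 3 samples that received its ASO, at 139, 65.4 and 69.4 CPM against 551, 436 and 209 CPM in Control-ASO, and the groups did not overlap. The log2 fold change was -2.13 (SE 0.432, edgeR adjusted p = 0.395), and DESeq2 gave an adjusted p of 6.2e-05. Libraries held between 28951250 and 34293344 counts on genes in Control-ASO and between 38556524 and 43997537 in Snhg11-ASO, without overlap. Markers of granule cells, pyramidal cells, interneurons, astrocytes, oligodendrocytes, microglia, endothelium and choroid plexus were all detected in all 6 samples. Choroid plexus, the ventricular tissue that borders the hippocampus, had the widest range between libraries of the lists: its 6 markers summed to 1868, 35.7 and 1206 CPM in Control-ASO and 1271, 118 and 64.8 CPM in Snhg11-ASO, with all 6 markers counted in every library. Control-ASO replicate 2 and Snhg11-ASO replicates 2 and 3 were thus the libraries low in choroid plexus RNA. Interneuron markers summed to between 428 and 463 CPM in Control-ASO and between 351 and 402 CPM in Snhg11-ASO, without overlap, and their part in the results was not tested. In tissue homogenates, fewer cells of a type and less RNA per cell cannot be told apart.

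Epha4, the receptor that binds both ephrin classes and acts on dendritic spines, was the most abundant of the 10 and lies at chr1:77367185-77515088 on the minus strand. Its values were 418, 668 and 486 CPM in Control-ASO and 502, 691 and 646 CPM in Snhg11-ASO, so the groups overlapped through Control-ASO replicate 2. The log2 fold change was 0.23 (SE 0.203, edgeR adjusted p = 0.793). Epha7 (chr4:28813131-28967499, plus strand), which controls cortical axon maps and dendrite growth, read 198, 331 and 209 CPM in Control-ASO and 255, 311 and 278 CPM in Snhg11-ASO. Here too Control-ASO replicate 2 was apart, the highest of all 6, and the log2 fold change was 0.19 (SE 0.206).

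Epha3 (chr16:63543534-63864175, minus strand), an axon guidance receptor that binds ephrin-A5 strongly, was counted at 27.8, 38.1 and 34.5 CPM in Control-ASO and 35.4, 44.2 and 41.5 CPM in Snhg11-ASO. Every Snhg11-ASO sample was above the lowest 2 controls, and Control-ASO replicate 2 was the overlap. Its log2 fold change of 0.27 (SE 0.148) was the largest positive value among the 10, with an edgeR adjusted p of 0.682. Epha5 (chr5:84054761-84417382, minus strand), which takes part in hippocampal mapping and synapse formation, differed least, with 143, 229 and 179 CPM in Control-ASO and 165, 215 and 200.2 CPM in Snhg11-ASO. Its log2 fold change was 0.076 (SE 0.187).

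Epha6 (chr16:59653483-60605531, minus strand), known for its role in neuronal and spine morphology, was the EphA gene with a lower mean in Snhg11-ASO, at 193 ± 18.5 CPM against 234 ± 83.2 CPM in Control-ASO (SD, n = 3). The 3 Snhg11-ASO values, 177, 213 and 188 CPM, lay within the span of the controls at 203, 329 and 172 CPM. Its log2 fold change was -0.28 (SE 0.237, edgeR adjusted p = 0.775), and without Control-ASO replicate 2 it turned to 0.040. At 952 kb it has the longest genomic span of the family, and correcting each library for its trend of counts with genomic span moved the log2 fold change to 0.069.

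In Epha3, Epha4, Epha5 and Epha7 the Control-ASO mean carried a wide spread, from 27.8 to 38.1 CPM for Epha3 and from 198 to 331 CPM for Epha7, and the order of libraries was shared. In each group replicate 2 was the highest and, in all 4 genes, the 3 libraries low in choroid plexus markers were the 3 highest libraries. Control-ASO replicate 2 was the library through which Epha3, Epha4 and Epha7 overlapped, so leaving it out had to separate those 3 genes. The groups then did not overlap in 5 of the 10 genes. Epha3, Epha4 and Epha7 were higher in every Snhg11-ASO sample, with Efna3 (higher) and Efna5 (lower) separate as before. Over all 20793 genes tested without Control-ASO replicate 2, the groups did not overlap in 13.2% with Snhg11-ASO higher and in 13.7% with Snhg11-ASO lower. The controls that remained were both high in choroid plexus markers. With the choroid plexus level as a term in edgeR, an alternative added after seeing the data, the log2 fold changes were 0.21 (SE 0.119) for Epha3, 0.14 (SE 0.104) for Epha4, -0.0022 (SE 0.110) for Epha5, -0.34 (SE 0.152) for Epha6 and 0.13 (SE 0.118) for Epha7, and none passed the adjusted threshold. The same 3 libraries were also the 3 highest for the summed markers of astrocytes (3313, 3707 and 3835 CPM against 1435 to 2719 CPM in the rest), oligodendrocytes (2864, 3529.6 and 2769.9 CPM against 1557 to 1899 CPM), microglia and macrophages (372, 345 and 376 CPM against 139.9 to 274 CPM) and pyramidal cells (819.8, 709.7 and 747 CPM against 665 to 702 CPM). The part of these lists in the EphA values was not tested.

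**Figure D2:**
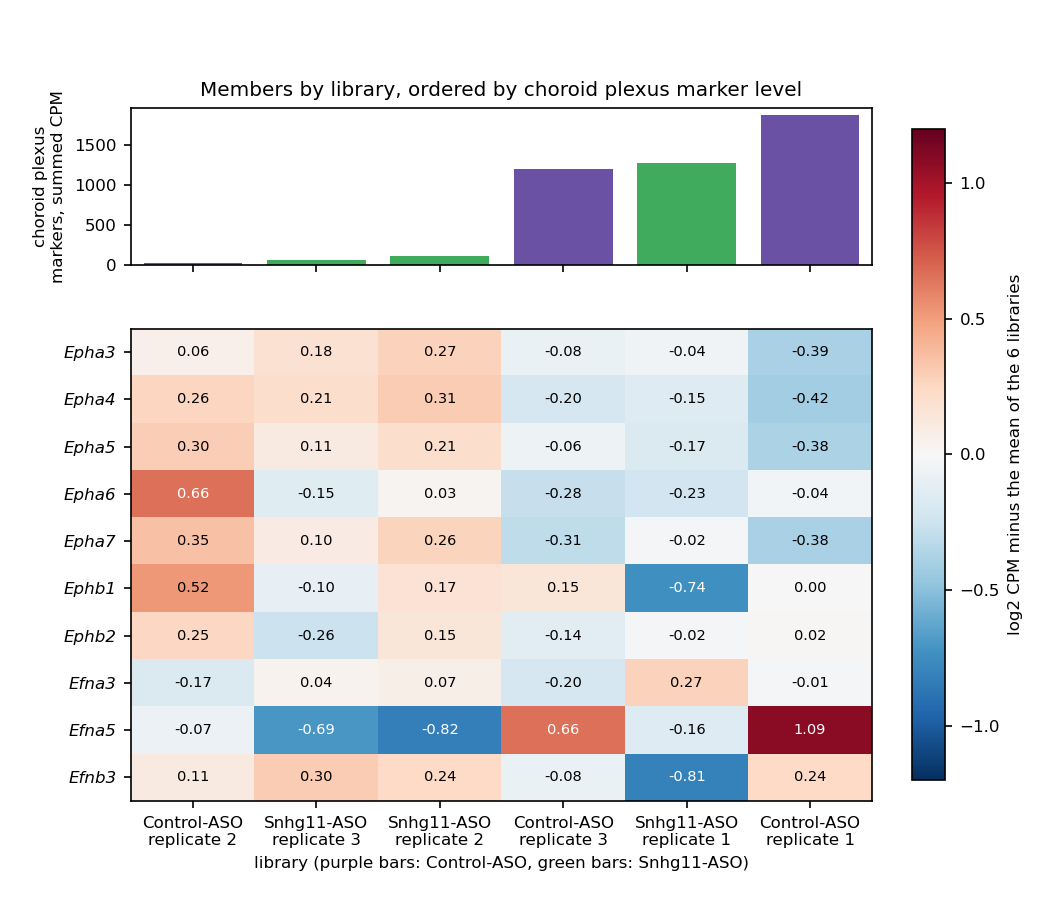
Top, summed CPM of the 6 choroid plexus markers in each library; bottom, log2 CPM of each of the 10 genes minus its mean over the 6 libraries, with libraries ordered from the lowest to the highest choroid plexus level. Red cells are above the gene's mean and blue cells below it. Epha3, Epha4, Epha5 and Epha7 are above their means in the 3 libraries at the left, and Efna5 is highest in Control-ASO replicate 1, at 1.09.

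Ephb1 and Ephb2 encode receptors for ephrin-Bs that control axon crossing, spine formation and, for EphB2, NMDA receptor clustering at synapses. Ephb1 (chr9:101922128-102354693, minus strand) was at 12.7, 23.8 and 19.7 CPM in Snhg11-ASO and at 21.2, 30.3 and 23.5 CPM in Control-ASO. The lowest value was Snhg11-ASO replicate 1, and replicate 2 of that group lay within the controls. That gave a log2 fold change of -0.42 (SE 0.250, edgeR adjusted p = 0.709), which stayed below 0 in all 19 alternative settings, between -0.63 and -0.20. With the choroid plexus term it was -0.55 (SE 0.174), with an unadjusted p of 0.0178 and an edgeR adjusted p of 0.508.

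Ephb2 (chr4:136647539-136835988, minus strand) did not separate the groups, with 26.3, 30.8 and 23.5 CPM in Control-ASO and 25.6, 28.8 and 21.7 CPM in Snhg11-ASO. Replicate 2 was the highest and replicate 3 the lowest within each group. Its log2 fold change was -0.084 (SE 0.154).

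Efna5 (chr17:62604184-62881317, minus strand) encodes ephrin-A5, a repellent ligand of EphA receptors in axon mapping and in the hippocampus. It had the largest difference of the 10, with a Snhg11-ASO mean that was 43.9% of the Control-ASO mean, at 1.65 ± 0.436 CPM against 3.76 ± 1.44 CPM (SD, n = 3). The samples read 5.17, 2.29 and 3.83 CPM in Control-ASO and 2.15, 1.34 and 1.47 CPM in Snhg11-ASO, from 152, 77 and 129 counts against 82, 56 and 64 counts. The gap between the groups was narrow: Control-ASO replicate 2 and Snhg11-ASO replicate 1 differed by less than either group's SD. The log2 fold change was -1.19 (SE 0.358), with an unadjusted edgeR p of 0.0130 and an adjusted p of 0.527. It was the 1 gene of the 10 at an unadjusted p under 0.05 in the lower direction, where all genes tested gave 4.43%, and 0 of the 10 were so in the higher direction, against 3.68%. The replicate block pairs same-numbered samples, a pairing that the labels do not state. With this block, 3 of the 10 were at an unadjusted edgeR p under 0.05. Efna5 and Ephb1 were in the lower direction, against 4.6% of all genes, and Epha3 in the higher direction, against 3.99%. All 3 pairs had the same sign in these 3 genes, but also in Epha4, Ephb2 and Efna3. Those had unadjusted edgeR p-values with the block of 0.0675, 0.462 and 0.0515. The edgeR adjusted p-values with the block were 0.474 for Efna5, 0.528 for Ephb1 and 0.563 for Epha3. For Efna5 alone of these 3 genes, the exact two-sided permutation test between the groups gave p = 0.1, the smallest value that 3 against 3 samples allow.

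DESeq2 gave Efna5 an adjusted p of 0.113. Without Snhg11-ASO replicate 1, DESeq2 gave a log2 fold change of -1.42 with an adjusted p of 0.0265, a setting that called 1.16% of all genes lower. No other setting called Efna5, and its fold change lay between -1.44 and -0.90 over the 19 alternatives. Efna5 followed the choroid plexus markers inside each group: the controls high in those markers read 5.17 and 3.83 CPM and the low one 2.29 CPM, while the Snhg11-ASO library high in them read 2.15 CPM and the low ones 1.34 and 1.47 CPM. Each level held only 1 library of 1 of the groups. Immature neuron markers split the libraries of each group in the same way, and the part of either list in the Efna5 values was not tested. With the choroid plexus term the log2 fold change was -0.97 (SE 0.231), with an unadjusted p of 0.00506 and an edgeR adjusted p of 0.442. At an unadjusted p under 0.05 that fit held 4.27% of all genes in the lower direction and 4.95% in the higher direction; of the 10, Efna5 and Ephb1 were in the former and Efna3, with a log2 fold change of 0.28 (SE 0.111), in the latter.

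Efna3 (chr3:89313899-89322965, minus strand) encodes ephrin-A3, the astrocyte ligand of EphA4 that limits glial glutamate transport. All 3 Snhg11-ASO values, 36.8, 31.9 and 31.4 CPM, were above the controls at 30.2, 27.0 and 26.6 CPM. The means were 33.4 ± 3.02 CPM and 27.9 ± 1.99 CPM (SD, n = 3), a difference of 19.5%. The log2 fold change was 0.26 (SE 0.113, edgeR adjusted p = 0.622), and it stayed above 0 in all 19 alternatives, between 0.18 and 0.31. Its exons overlap the antisense gene Gm15998 by 344 bases, and 0.308% of the counts at the gene were antisense.

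Efnb3 (chr11:69554092-69560205, minus strand), a ligand that blocks axons at the midline and acts at excitatory synapses, was at 70.1, 63.9 and 55.8 CPM in Control-ASO and at 33.7, 69.8 and 73.0 CPM in Snhg11-ASO. Snhg11-ASO replicate 1 was below every other library, and the remaining Snhg11-ASO samples were within or above the controls. The log2 fold change of -0.10 (SE 0.279) turned to 0.18 without that library. Snhg11-ASO replicate 1 was also the lowest library for Ephb1, and its median rank correlation with the other libraries over genes, 0.958, was the lowest of the 6, with the rest between 0.980 and 0.986.

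**Figure D3:**
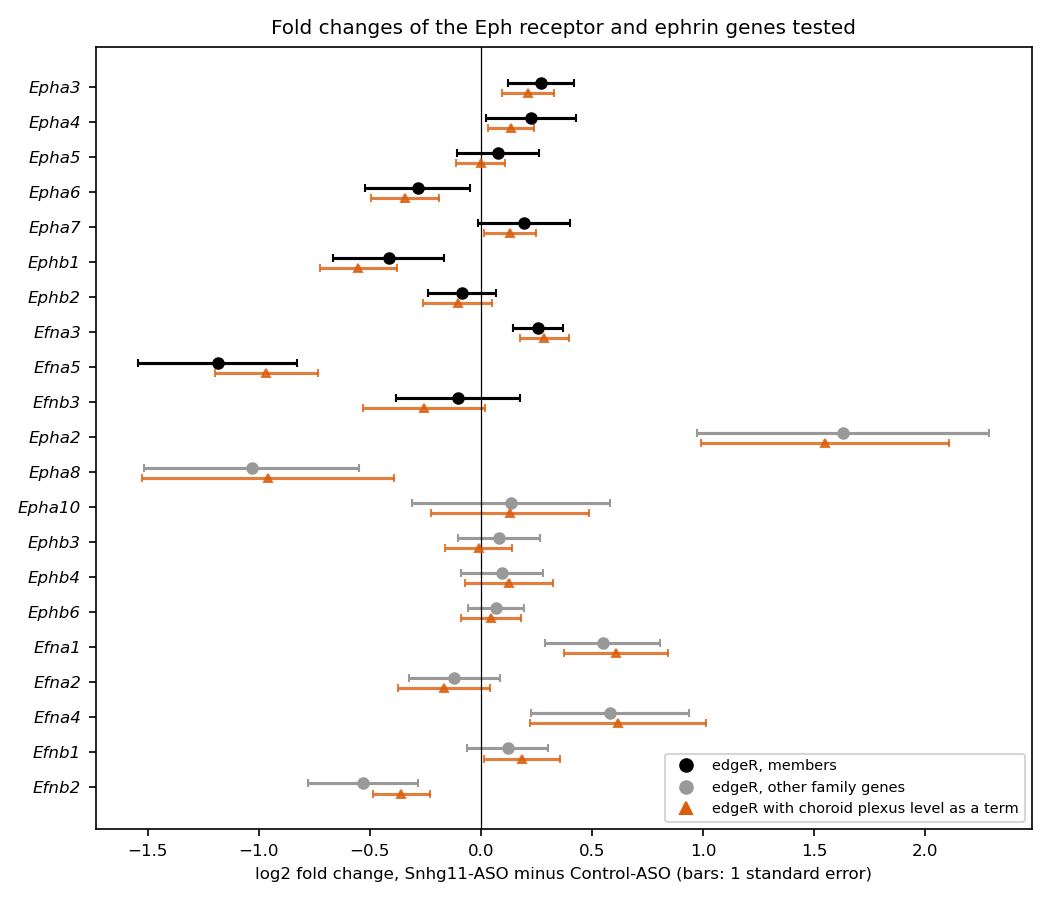
Log2 fold changes (Snhg11-ASO minus Control-ASO, horizontal axis) of the 21 family genes tested, with bars of 1 standard error. Circles are the edgeR fit on group alone, black for the 10 genes and grey for the others, and orange triangles the fit with the choroid plexus level as a term. Efna5 lies at -1.19 and Epha2 at 1.63, and most other genes lie within 1 log2 unit of 0 in both fits.

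Of the 12 remaining family genes, 11 were tested, 3 were lower and 8 higher, with a median log2 fold change of 0.095, and none passed the adjusted threshold. Epha2, a receptor of epithelia and vessels, was at 1.73, 1.40 and 1.19 CPM in Control-ASO and at 9.26, 2.63 and 1.51 CPM in Snhg11-ASO. The groups overlapped, and the log2 fold change of 1.63 (SE 0.657, edgeR adjusted p = 0.596) rested most on Snhg11-ASO replicate 1, without which it was 0.53. With replicate 3 of the same group left out, DESeq2 gave Epha2 an adjusted p of 0.0335, a setting that called 0.614% of all genes higher.

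Epha10, whose kinase domain is inactive, was highest in that same library: 52.3 CPM in Snhg11-ASO replicate 1, with 17.3 and 16.5 CPM in the others of its group and 30.2, 24.3 and 23.8 CPM in Control-ASO. Its log2 fold change changed from 0.14 (SE 0.446) to -0.63 in both edgeR and DESeq2 when Snhg11-ASO replicate 1 was left out, with a DESeq2 adjusted p of 0.00628 there. Ephb6, the other receptor with an inactive kinase, was steady at 48.6, 49.3 and 53.7 CPM against 45.5, 60.9 and 52.6 CPM.

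The ephrin-A genes Efna1, Efna3 and Efna4 lie in a row on the minus strand of chromosome 3, between 89271733 and 89338028. All 3 had positive log2 fold changes, 0.55 (SE 0.260) for Efna1, 0.26 for Efna3 and 0.58 (SE 0.357) for Efna4. Efna1 was higher in every Snhg11-ASO sample, at 4.90, 2.90 and 3.28 CPM against 2.55, 2.29 and 2.73 CPM. Without Snhg11-ASO replicate 1 its edgeR log2 fold change was 0.29. Efna4 was under 1 CPM in all libraries, and its groups overlapped. The other 23 genes tested within 100 kb of this row had 7 lower and 16 higher values and a median of 0.11.

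Efnb2, a ligand of EphB receptors and EphA4 that marks arterial endothelium, read 27.1, 14.95 and 26.2 CPM in Control-ASO and 18.6, 13.9 and 14.7 CPM in Snhg11-ASO. Its 3 highest libraries were the 3 with high choroid plexus markers, which were also the 3 highest in immature neuron markers. The log2 fold change of Efnb2 was -0.53 (SE 0.246) without and -0.36 (SE 0.128) with the choroid plexus term. 3 genes on the same strand inside its introns, E230020D15Rik, Gm45074 and Gm45073, had log2 fold changes of -0.52, -0.52 and -0.69, and their reads could include unspliced Efnb2. Epha8 was low throughout, with 1.94, 1.10 and 2.88 CPM against 0.577, 0.790 and 1.51 CPM and a log2 fold change of -1.03 (SE 0.484, edgeR adjusted p = 0.644). Efna2, Efnb1, Ephb3 and Ephb4 had log2 fold changes between -0.12 and 0.12. Epha1 had between 3 and 8 counts a library and was not tested, and 95.9% of the counts at the gene came from the opposite strand, where its exons overlap Zyx by 236 bases.

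Scaled per kb of merged exon, the family ran from Epha4 to Epha1 at 0.0458 in Control-ASO, and EphA receptors led it. The order of mean levels, in CPM per kb, began with Epha4 at 65.05 ± 16.1, Epha6 at 44.3 ± 15.7 and Epha7 at 24.9 ± 7.43, followed by Efnb3 at 19.9 ± 2.24 (SD, n = 3). The sample ranges of each of these neighbours overlapped. Ephb6 at 13.4, Efna3 at 11.5 and Epha5 at 11.0 formed the next step, and Efnb3 was above Ephb6 and Ephb6 above Efna3 in every Control-ASO sample. After a drop below Epha5 that no sample bridged came Epha3 at 3.85, Epha10 at 3.62, Ephb1 at 3.57, Efnb2 at 3.31 and Ephb2 at 2.13, whose ranges overlapped in turn. Efna5, at 0.933 ± 0.357, stood at rank 18 of 22, next to Ephb4 and Epha8, and was at 0.410 in Snhg11-ASO, at rank 19. The first 11 genes kept their rank in Snhg11-ASO. The 10 genes together held between 83.5% and 89.9% of the summed per-kb level of the family in every library.

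**Figure D4:**
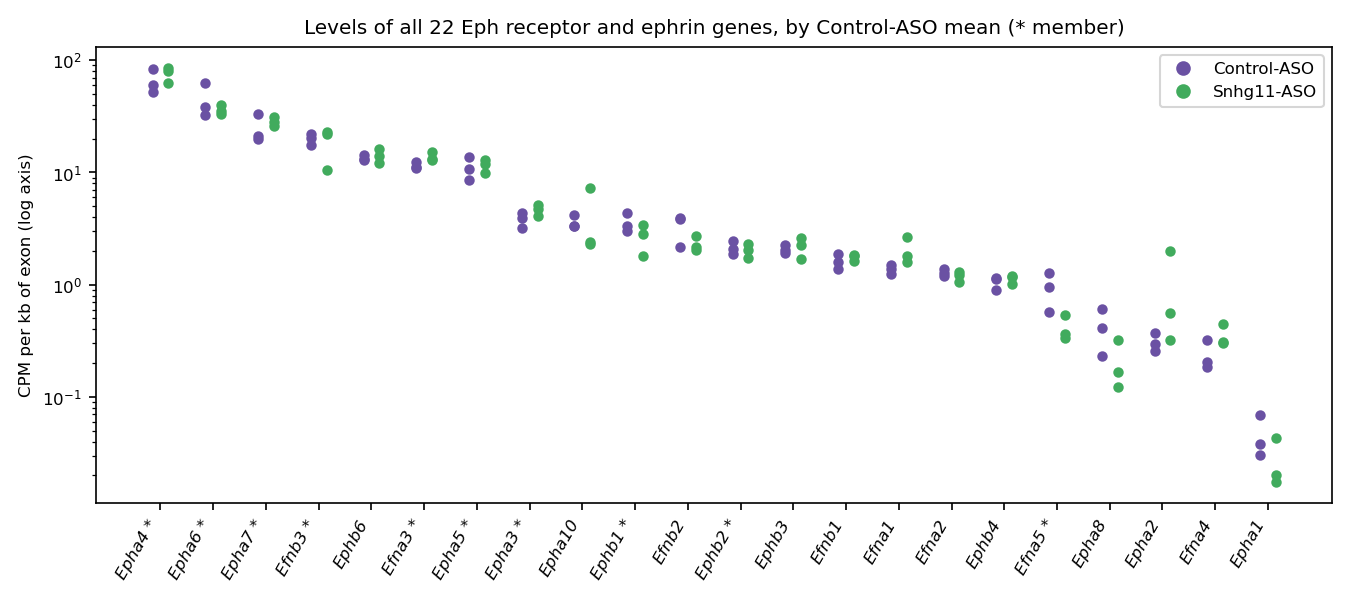
Levels of the 22 family genes in CPM per kb of exon (log axis), ordered by their Control-ASO mean, with 3 Control-ASO samples in purple and 3 Snhg11-ASO samples in green per gene. Asterisks mark the 10 genes. Epha4 leads in both groups. The points of Efna5 do not overlap, but the gap is narrow, from 0.533 in Snhg11-ASO to 0.568 in Control-ASO.

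The 10 genes are long: 8 of them span over 100 kb of the genome, against 12.3% of all genes tested, with a median of 233 kb against 16.9 kb. Genes over 100 kb had a median log2 fold change of -0.078 as a whole. After removal of the span trend of each library the median of the 10 moved from -0.0040 to 0.13, and that of the EphA genes from 0.19 to 0.26.

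The list of genes that pass on or regulate Eph and ephrin signals held 49 genes. All were tested, 20 were lower and 29 higher in Snhg11-ASO, with a median log2 fold change of 0.015, and 0 passed the edgeR adjusted threshold. At an unadjusted edgeR p under 0.05 there were 5 lower and 3 higher, and the groups did not overlap in 8 lower and 5 higher genes, which can be read against the background shares of 4.43%, 3.68%, 7.7% and 7.73% given above. DESeq2 called 2, Itsn1 and Limk1, both lower, where it called 0.796% of all genes lower. Without Snhg11-ASO replicate 3 both calls were lost, with DESeq2 adjusted p-values of 0.140 for Itsn1 and 0.156 for Limk1.

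Itsn1, an exchange factor for Cdc42 that acts with EphB2 in spines, was at 192, 176 and 158 CPM in Control-ASO and at 117, 135 and 111 CPM in Snhg11-ASO, with no overlap. Its log2 fold change was -0.53 (SE 0.115, edgeR adjusted p = 0.418, DESeq2 adjusted p = 0.0157). Limk1, the LIM kinase that inactivates cofilin, was at 21.4, 21.3 and 23.5 CPM against 13.3, 16.8 and 15.1 CPM. Here the log2 fold change was -0.55 (SE 0.129, edgeR adjusted p = 0.452, DESeq2 adjusted p = 0.0243). Pak1, a kinase upstream of LIM kinase, was also lower in every Snhg11-ASO sample, at 177, 183 and 157 CPM against 204, 218 and 249 CPM, with a log2 fold change of -0.38 (SE 0.109).

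Ntrk2, the BDNF receptor that associates with ephrin-A, was nearly constant in Control-ASO at 529, 530 and 531 CPM and was at 407, 459 and 452 CPM in Snhg11-ASO (log2 fold change -0.27, SE 0.0907), and after the span correction its log2 fold change was -0.096. Grb10, an adaptor that binds EphB1, was lower at 23.3, 24.9 and 27.5 CPM against 36.5, 29.3 and 43.3 CPM. Among the genes that were higher, Dok1, a docking protein, read 4.48, 2.73 and 3.00 CPM against 1.60, 1.90 and 1.87 CPM, and Sdcbp, the syntenin scaffold that binds ephrin-B tails, 232, 225 and 229 CPM against 167, 209 and 189 CPM. Rhoa, the GTPase downstream of EphA receptors, had a log2 fold change of 0.29 (SE 0.114) with overlapping groups. None of Pak1, Ntrk2, Grb10, Dok1, Sdcbp and Rhoa passed the adjusted threshold of edgeR or of DESeq2.

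**Figure D5:**
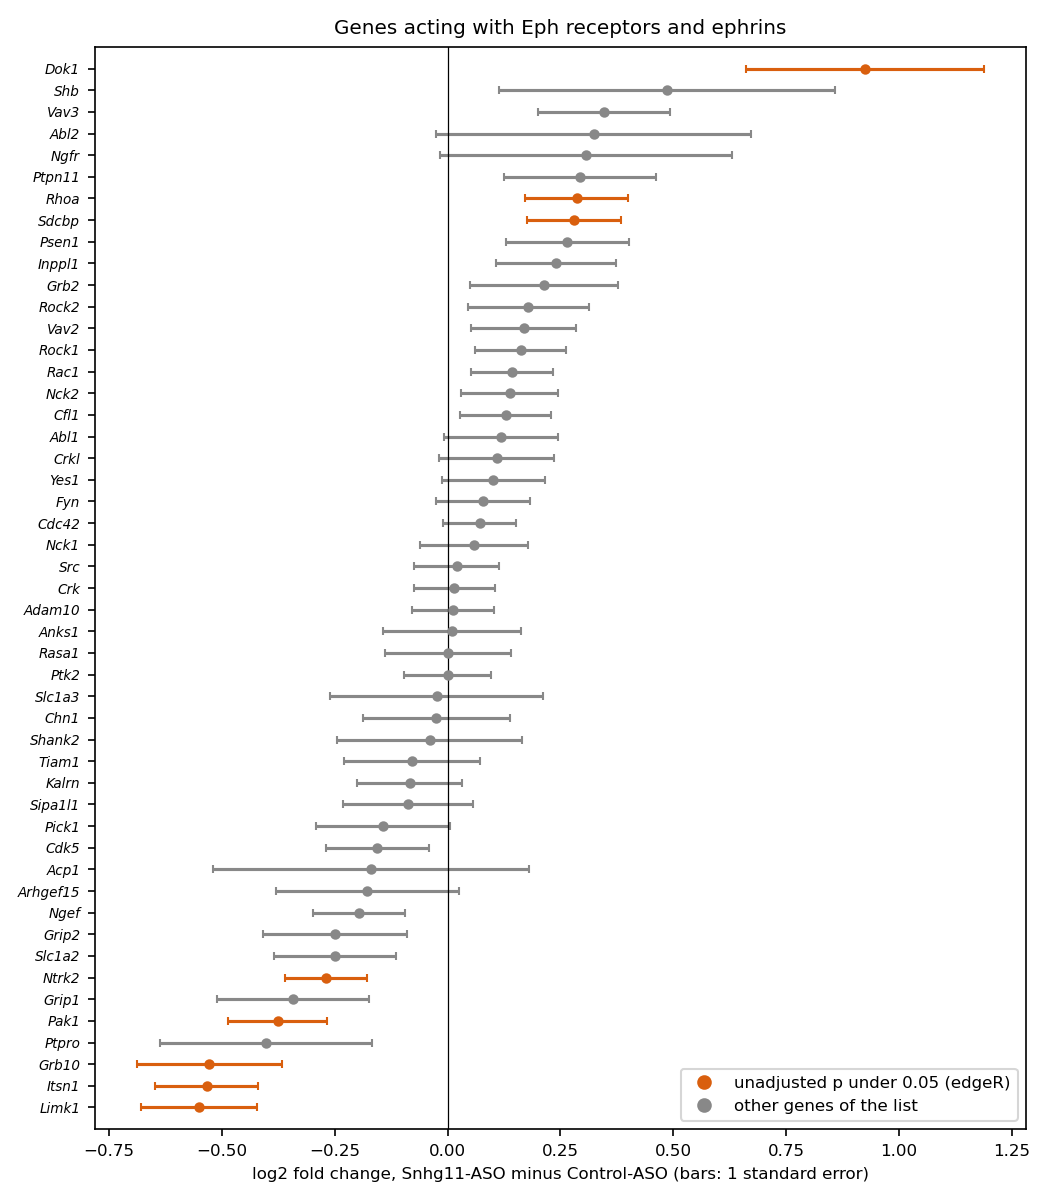
Log2 fold changes (Snhg11-ASO minus Control-ASO, horizontal axis) of the 49 genes that act with Eph receptors and ephrins, with bars of 1 standard error from edgeR. The 8 genes at an unadjusted p under 0.05 are in orange, from Limk1 at -0.55 to Dok1 at 0.92, and the others in grey.

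Over the 6 libraries, the mean log2 profile of the 10 genes was highest in Control-ASO replicate 2, at 0.23 relative to its mean, and lowest in Snhg11-ASO replicate 1, at -0.21.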

How the data were processed

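Dorsal hippocampi were sequenced by the authors with ribosomal RNA depletion and a stranded kit, as paired-end reads of 50 bases, and aligned to mm10 (GRCm38) with STAR 2.5.2a per the labels. The deposited files hold STAR gene counts for 3 Control-ASO and 3 Snhg11-ASO samples. Column 4, the counts of the stranded orientation, was used. The summary lines, which name no gene, were left out; they held between 43.5% and 51.4% of reads. The study names Rsubread and DESeq2 and removed 1 Snhg11-ASO sample that it does not identify, so all 6 samples were kept and each was left out in turn. Symbols and coordinates came from GENCODE M21, which matched 55141 of 55401 gene identifiers. Library totals ran from 28951250 to 43997537 counts, and every Snhg11-ASO library was deeper than every Control-ASO library.

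The fit was edgeR 4.0.16 (R 4.3.3) quasi-likelihood on group, with filterByExpr at a minimum count of 10, TMM scaling and Benjamini-Hochberg adjustment over 19969 genes at 0.05, and it was tested on simulated data. CPM used TMM library sizes, and levels of different genes were compared per kb of merged exon. Alternatives were DESeq2 1.42.0, other scalings, filters and strands, offsets from a loess trend with genomic span, leaving out each sample, a replicate block and, added after seeing the data, the choroid plexus level as a term. The replicate block paired same-numbered samples, with numbers that come from the sample titles. Deviations from the group means correlated at 0.297, 0.179 and 0.103 in these pairs. Differently numbered samples were not compared, so these values cannot show that the samples were paired. Nothing in the labels says how the mice of a group were related by litter or batch, and p-values measure the spread between these samples.

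The genes and lists were chosen with earlier results of these data known. Named with values are the 10 genes, the 12 others of the family, Snhg11, and up to 10 genes of the signalling list with unadjusted p under 0.05. The rule also named the 5 genes nearest in profile, a result that is not reported here. Promoter sequences are from RefSeq. Counts in exons cannot separate spliced from unspliced RNA.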

Additional observations from a re-analysis of the deposited data

How the results depend on the processing

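Over the 19 alternatives, 176 of 190 values for the 10 genes kept their direction and their side of the threshold, 1 passed it and 13 turned, and 6 of the 10 genes never changed direction. None of the 10 was called in edgeR under any alternative; DESeq2 without Snhg11-ASO replicate 1 called 1, Efna5. Leaving out 1 library gave between 2 and 5 genes whose groups did not overlap (5 without Control-ASO replicate 2, with its background given above). Over all genes, 2370 were lower and 2366 higher of 20640 without Control-ASO replicate 1, and 2346 and 2361 of 20722 without replicate 3. They were 2764 and 2967 of 20226 without Snhg11-ASO replicate 1, 2428 and 2503 of 20376 without replicate 2, and 2553 and 2555 of 20362 without replicate 3. The counts of 2 or 3 of the 10 in these fits were close to that background. On the signalling list DESeq2 called 2 genes, 2 with Snhg11-ASO replicate 1 or 2 left out and 0 with replicate 3 left out, against 0 in edgeR. Over all genes DESeq2 called 159 lower and 99 higher of 19969, and 234 and 113 of 20226 without Snhg11-ASO replicate 1. The numbers were 134 and 141 of 20376 without replicate 2, and 98 and 125 of 20362 without replicate 3. The median log2 fold change of the 10 was 0.0045 with the replicate block and 0.17 with the replicate block and genomic span offsets, and between -0.10 and 0.18 leaving out 1 library. The replicate block changed no call at the adjusted threshold. Directions turned as follows, and the cause was not tested. With genomic span offsets Epha6 was at 0.069. With the replicate block and span offsets Epha6 was at 0.13, Ephb2 at 0.0024, Ephb3 at -0.00081, Ephb6 at -0.0062 and Epha10 at -0.12, and with the replicate block alone Epha10 was at -0.078. With the choroid plexus term Epha5 was at -0.0022 and Ephb3 at -0.011. With DESeq2 leaving out a Snhg11-ASO replicate, Efnb3 was at 0.17 and Epha10 at -0.63 (replicate 1), Epha5 at -0.0074 and Ephb6 at -0.044 (replicate 2), and Ephb2 at 0.019 and Ephb3 at -0.061 (replicate 3). Leaving out 1 library in edgeR gave log2 fold changes from -0.083 to 0.27 for Epha5, -0.47 to 0.040 for Epha6, -0.19 to 0.026 for Ephb2, -0.29 to 0.18 for Efnb3, -0.63 to 0.41 for Epha10, -0.065 to 0.24 for Ephb3, -0.010 to 0.16 for Ephb4 and -0.045 to 0.17 for Ephb6. Of the 21 neighbouring pairs in the order of levels, 19 kept their order with the longest transcript as length and 19 with counts of both strands. Counts per library were low for Epha1 (3 to 8, not tested), Efna4 (10 to 31), Epha8 (22 to 97), Efna5 (56 to 152) and Efna2 (75 to 120), which limits the precision of their values.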
